A study of Mus musculus with 4 samples.

Results

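Myc, Mycn, Mycl, Lin28a, Lin28b, Trim71, Hmga2, Igf2bp1, Igf2bp2 and Igf2bp3 are described here across cell populations of the mouse hindlimb bud at embryonic day 11.5. These 10 genes were taken by symbol from a table of 25239 genes, and all 10 were found and passed the filter on low counts. Every embryo was of the FVB strain, had a wild-type genotype according to the labels, and carried the same reporter, H11 hsp68-hZRS(404G>A)-mCherry, a transgene at the H11 locus that couples the human form of the ZRS, carrying the change 404G>A, and the hsp68 promoter to the fluorescent protein mCherry. Anterior cells positive for mCherry (2 libraries) were compared with central cells negative for mCherry (2 libraries), both obtained by dissection, dissociation and sorting. The populations differ in position and in reporter state at once, so these cannot be told apart, and all cells, central ones included, come from embryos with the transgene. Nothing in the labels says whether the libraries came from separate embryos or pools, so p-values measure only the spread between these samples, which may be technical.

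MYC, MYCN and MYCL are basic helix-loop-helix leucine zipper transcription factors that pair with MAX and bind E-box DNA, and they promote ribosome production, metabolism and cell division. LIN28A and LIN28B are RNA-binding proteins that block the maturation of let-7 microRNAs. The let-7 family in turn represses a set of mRNAs typical of early embryos, among them those of HMGA2, IGF2BP1 to IGF2BP3, TRIM71 and LIN28 itself. In limb buds Mycn is known as the main Myc gene of the mesenchyme and is needed for normal limb growth.

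The matches to the let-7 seed in these mRNAs are shown first, as a description of their 3′ UTRs. A match does not show that let-7 acts on the mRNA. In RefSeq (GRCm38.p6), 10 mature mouse microRNAs of the let-7 and miR-98 family carry the same seed, bases 2 to 8, which is in capitals here:
let-7a-5p: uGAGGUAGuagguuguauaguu
let-7g-5p: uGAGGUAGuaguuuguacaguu
miR-98-5p: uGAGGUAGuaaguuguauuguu
The DNA letters complementary to that seed, CTACCTC, were searched on the transcript strand in the 3′ UTR of each gene (GENCODE M21, GRCm38, the protein-coding transcript with the longest 3′ UTR). They were found in 7 of the 10 genes, 20 times in all, and 13 of these were followed by an A. The first match in each of those 3′ UTRs is shown 5′ to 3′, with the 7 matching bases in capitals:
Lin28a: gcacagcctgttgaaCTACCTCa
Lin28b: acccgggcgggaagtCTACCTCa
Trim71: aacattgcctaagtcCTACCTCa
Hmga2: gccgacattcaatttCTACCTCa
Igf2bp1: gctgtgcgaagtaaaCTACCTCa
Igf2bp2: acacacaaataaaagCTACCTCa
Igf2bp3: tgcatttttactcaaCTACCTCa

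All of these windows are exonic, in the 3′ UTR and on the minus strand. They lie at chr4:134005189-134005211 for Lin28a, chr10:45381022-45381044 for Lin28b, chr9:114512472-114512494 for Trim71 and chr10:120364224-120364246 for Hmga2. The Igf2bp1 window is at chr11:95961778-95961800, that of Igf2bp2 at chr16:22059473-22059495 and that of Igf2bp3 at chr6:49086787-49086809. Lin28b, Trim71, Hmga2 and Igf2bp1 each held 4 matches, Lin28a held 2, and Igf2bp2 and Igf2bp3 held 1 each. Among 13520 tested genes with a 3′ UTR of any length, 10.7% held at least 1 match and 11 genes (0.0814%) held 4 or more, including those 4. The 3′ UTRs of the 7 genes were 1784 to 6337 bases long, against a median of 1201 for tested genes. Among tested 3′ UTRs of similar length, 4 or more matches were held by 0.299% for Lin28b, 0.386% for Trim71, 0.214% for Hmga2 and 0.545% for Igf2bp1. For Lin28a 2.42% held 2 or more. For Igf2bp2 and Igf2bp3 12.2% and 13.4% held at least 1. No match was found in the 3′ UTR of Myc (466 bases), Mycn (913 bases) or Mycl (1970 bases), which says only that these letters are not in those windows. The 10 genes include well-known let-7 targets, so the matches describe them and test nothing.

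Library totals ranged from 30080925 to 33257383 counts. The limb mesenchyme genes listed were Prrx1, Prrx2, Twist1, Pitx1, Tbx4 and Lhx9. They summed to 2720 and 2695 CPM in anterior libraries and to 1882 and 1740 in central ones. Lhx9, Prrx2 and Twist1 (3 of 6) were called higher in anterior cells and none lower. Prrx1, Pitx1 and Tbx4 were not called, with log2 fold changes of 0.07, -0.05 and -0.14, so the rise of the sum was not shared by the whole list. CPM means counts per 1 M counts after TMM scaling, a correction for library make-up, and "called" means that the quasi-likelihood test of edgeR gave an adjusted p-value under 0.05, with 14610 genes tested. Markers of other cell types moved with the comparison. The 8 erythroid markers summed to 3300 and 8406 CPM in anterior libraries against 8.28 and 11.1 in central ones (8 of 8 higher). The 6 myogenic markers summed to 4.17 and 2.35 CPM against 141 and 142 (6 of 6 lower, with Myog at 0 counts in both anterior libraries), and the 8 ectoderm markers to 9.95 and 10.1 CPM against 50.04 and 160.3 (7 of 8 lower). Endothelial markers were lower in 4 of 6 (4.74 and 7.53 against 21.98 and 30.8 CPM), neural crest markers in 2 of the 3 tested out of 5 (6.42 and 5.66 against 25.6 and 20.0 CPM), and macrophage markers were higher in 2 of 5 (14.99 and 11.2 against 6.04 and 5.16 CPM). The part of these cells in the differences described here was not tested, and in sorted bulk populations fewer cells of a type and less RNA per cell cannot be told apart.

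Of the 10 genes, 8 were called, 5 higher in anterior cells (Mycn, Lin28a, Trim71, Lin28b and Igf2bp1) and 3 lower (Myc, Hmga2 and Mycl). Over all 14610 tested genes, 22.9% were called, 10.7% higher and 12.3% lower. The median absolute log2 fold change was 0.62 for the 10 genes and 0.22 for all tested genes. The signed medians were 0.14 and -0.01, since the 10 genes moved in both directions. Anterior and central values did not overlap for 9 of the 10 genes, a separation also seen for 63.5% of tested genes. The 2 anterior libraries lay on the same side of both central libraries for each gene except Igf2bp2.

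**Figure D1:**
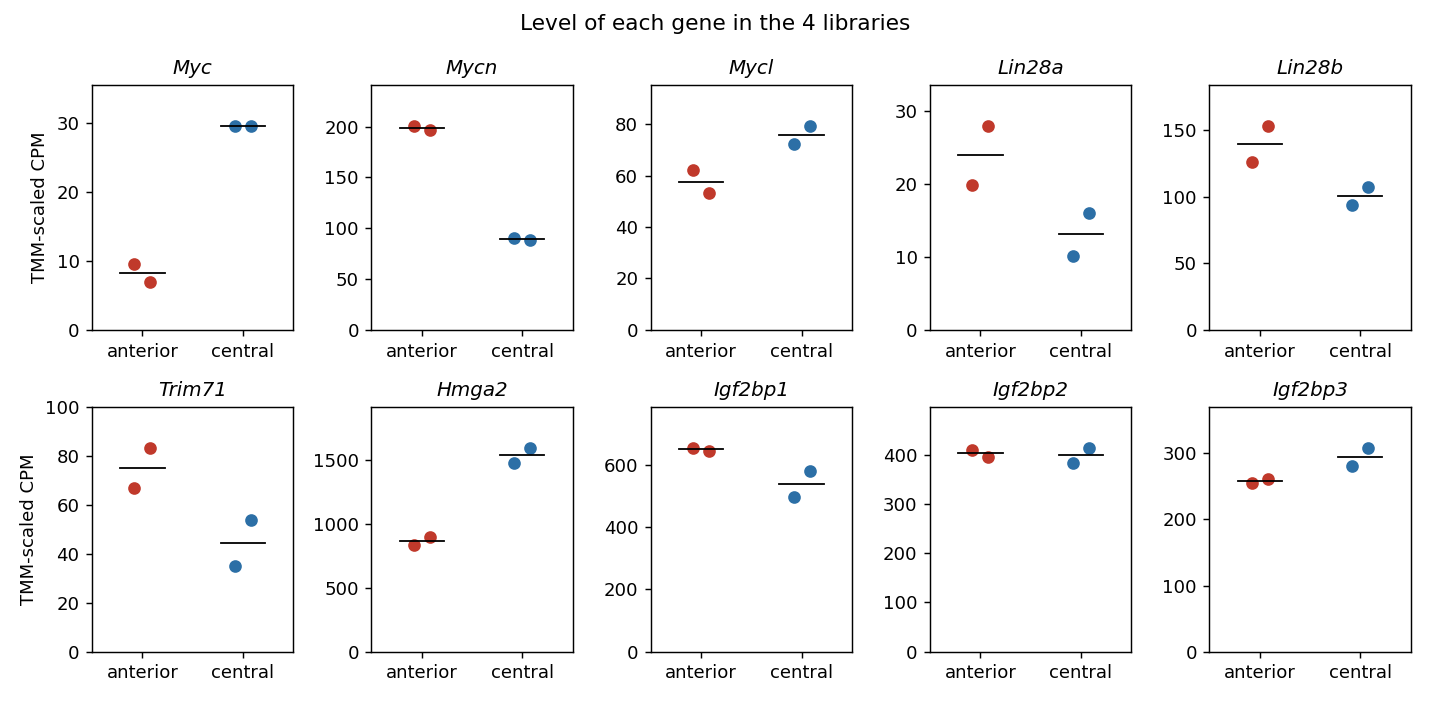
TMM-scaled CPM (vertical axes, from 0) of the 10 genes in each of the 2 anterior (red) and 2 central (blue) libraries, with a horizontal line at the mean of each population. Mycn stands at about 200 in anterior libraries and 89 in central ones, Myc and Hmga2 stand lower in anterior libraries, and the Igf2bp2 points overlap.

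**Figure D2:**
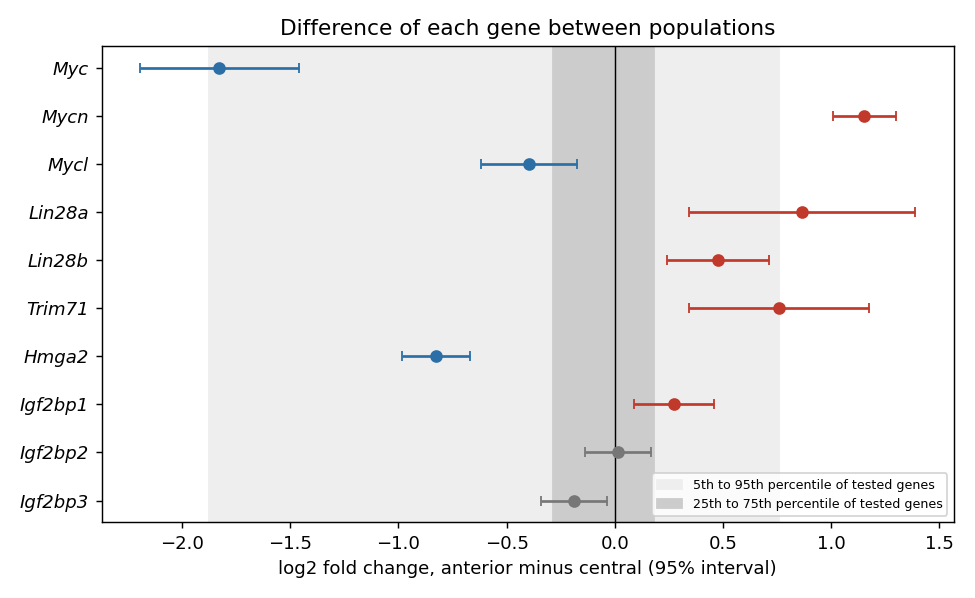
Log2 fold change of each gene, anterior minus central (horizontal axis), with its 95% interval from the edgeR fit; red points were called higher in anterior cells, blue points lower and grey points were not called. Grey bands give the central 50% and central 90% of all tested genes, and Mycn and Lin28a lie above the upper edge of the wider band at 0.757.

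The MYC paralogues changed in opposite directions. Mycn (chr12:12936093-12941914, minus strand) measured 201 and 196 CPM in anterior libraries and 90.1 and 88.6 CPM in central ones. The values of each population lay close together and far from those of the other. The mean was 2.22-fold higher in anterior cells (log2 fold change 1.15 ± 0.06 SE, edgeR adjusted p = 7.63e-06). A call with a change of at least 2-fold was made upward for 2.34% and downward for 6.78% of tested genes. Myc (chr15:61985391-61990374, plus strand), the founding member of the family and a driver of growth in many tissues, measured 9.62 and 7.02 CPM in anterior libraries and 29.6 and 29.6 CPM in central ones. Both anterior libraries were well below both central ones, 3.55-fold on average (log2 fold change -1.83 ± 0.16 SE, edgeR adjusted p = 9.69e-05). Mycl (chr4:122995652-123002485, plus strand), the third paralogue, measured 62.1 and 53.2 CPM against 72.5 and 79.4 CPM. It was lower in anterior cells by a smaller amount (log2 fold change -0.40 ± 0.10 SE, edgeR adjusted p = 0.0189), and without anterior replicate 2 this call was lost (log2 fold change -0.285, adjusted p = 0.15).

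Mycn was the most abundant of the 3 in both populations once counts were divided by exon length. Per kilobase of exon, Mycn measured 60.3 ± 0.95 CPM in anterior cells and 27.1 ± 0.32 CPM in central cells (SD, n = 2). Mycl measured 14.3 ± 1.6 against 18.8 ± 1.2 CPM per kilobase, and Myc 3.06 ± 0.68 against 10.9 ± 0.01. The order Mycn, Mycl, Myc was the same in all 4 libraries. Mycn made up 76.3% and 79.1% of the family's length-scaled level in anterior libraries and 48.7% and 46.8% in central ones. The share of Myc was 4.44% and 3.43% in anterior libraries and 19.4% and 18.98% in central ones, so that the ratio of Mycn to Myc was 17.2 and 23.1 against 2.51 and 2.47. The summed level of the family per kilobase was 79.8 and 75.3 CPM in anterior libraries and 56.2 and 57.5 in central ones. Both anterior sums were above both central sums.

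**Figure D3:**
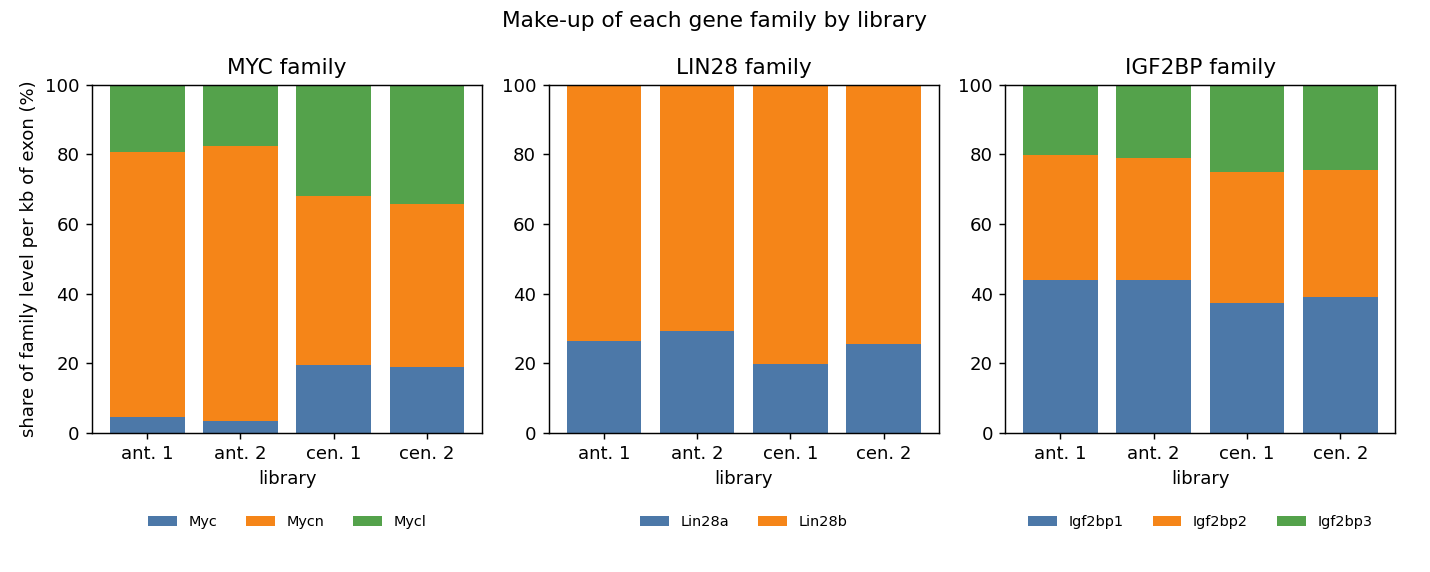
Share of each paralogue (coloured segments, in percent, adding up to 100 in each bar) in the length-scaled level of its family, for each of the 4 libraries. The Mycn segment takes 76.3% and 79.1% of the anterior bars and 48.7% and 46.8% of the central bars, while the LIN28 and IGF2BP bars differ less between populations.

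The LIN28 genes were both higher in anterior cells. Lin28b (chr10:45376620-45486395, minus strand) measured 126 and 153 CPM in anterior libraries and 94.0 and 107 CPM in central ones. The lower anterior library was still above the higher central one, and the mean difference was 1.39-fold (log2 fold change 0.48 ± 0.10 SE, edgeR adjusted p = 0.0117). Lin28a (chr4:134003330-134018841, minus strand), the paralogue best known from embryonic stem cells, measured 19.9 and 28.0 CPM against 10.2 and 16.1 CPM. These groups did not overlap either, but the replicates of each population were apart, and the 1.82-fold difference had a wider error (log2 fold change 0.86 ± 0.23 SE, 95% interval 0.34 to 1.39, edgeR adjusted p = 0.0273). Per kilobase of exon Lin28b was the more abundant paralogue in each library, with 73.7% and 70.7% of the pair's level in anterior libraries and 80.3% and 74.6% in central ones. Without central replicate 1 the log2 fold change of Lin28a was 0.576 and it was still called. Without anterior replicate 2 neither call held, with a log2 fold change of 0.603 for Lin28a (adjusted p = 0.109) and 0.335 for Lin28b (adjusted p = 0.0758).

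Trim71, which encodes the TRIM-NHL protein LIN-41, a repressor of mRNAs and a classical let-7 target, moved in the same direction. It lies at chr9:114507133-114564369 on the minus strand and measured 67.0 and 83.3 CPM in anterior libraries and 35.1 and 53.8 CPM in central ones. The anterior values were above the central ones by 1.69-fold on average (log2 fold change 0.76 ± 0.18 SE, edgeR adjusted p = 0.018). The DESeq2 Wald test did not call it (adjusted p = 0.108, log2 fold change 0.763), and without central replicate 1 the log2 fold change was 0.484 and it was called. In Lin28a, Lin28b and Trim71 the library numbered 2 was the higher in each population, as it also was in Hmga2 and Igf2bp3, which were not called higher. The erythroid markers also had their higher sum in anterior replicate 2 (8406 against 3300 CPM) and the ectoderm markers in central replicate 2 (160.3 against 50.04 CPM). Their part in the LIN28 and Trim71 values was not tested.

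Hmga2, which encodes an architectural chromatin protein of proliferating mesenchyme and is repressed by let-7, went the other way. This gene (chr10:120361275-120476469, minus strand) measured 835 and 896 CPM in anterior libraries and 1475 and 1594 CPM in central ones. Both anterior values lay far below both central values, by 1.77-fold on average (log2 fold change -0.83 ± 0.07 SE, edgeR adjusted p = 7.61e-05). Per kilobase of exon it was the most abundant of the 10 genes in each library, at 127.8 ± 6.4 CPM in anterior cells and 227 ± 12 CPM in central cells (SD, n = 2), and its mean level ranked at percentile 98.8 of the tested genes with a known exon length. Thus the let-7 site genes with 4 matches each divided into Lin28b, Trim71 and Igf2bp1, called higher, and Hmga2, called lower. Its paralogue Hmga1 measured 10.8 and 11.7 CPM against 10.03 and 12.8 CPM and was not called (log2 fold change -0.03, 95% interval -0.43 to 0.38, edgeR adjusted p = 0.932). The table lists Hmga1b, a near-identical copy, at 0 in every library, so how reads shared with it were counted leaves the Hmga1 level uncertain.

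The IGF2BP genes encode RNA-binding proteins that stabilise and localise mRNAs such as those of Igf2, Actb and Myc. They differed little between the populations. Igf2bp1 (chr11:95957163-96005940, minus strand) measured 657 and 647 CPM in anterior libraries and 497 and 582 CPM in central ones. Both anterior values were above the central ones, 1.21-fold on average, with an adjusted p-value close to the threshold (log2 fold change 0.27 ± 0.08 SE, edgeR adjusted p = 0.0411). The call was lost with library size alone (adjusted p = 0.0696), with upper-quartile factors (0.0635), with a mean count of at least 50 (0.0505), and without anterior replicate 1 (0.137), anterior replicate 2 (0.117) or central replicate 1 (0.0833, where the log2 fold change was 0.166).

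Igf2bp2 (chr16:22059009-22163299, minus strand) measured 409.6 and 395 CPM against 382 and 414 CPM. Its groups overlapped and it was not called, and the 95% interval of its log2 fold change ran from -0.14 to 0.17 (edgeR adjusted p = 0.899). Igf2bp3 (chr6:49085223-49214957, minus strand) measured 255 and 262 CPM against 281 and 309 CPM. Its anterior values were below its central ones, but the difference was not called (log2 fold change -0.19 ± 0.07 SE, edgeR adjusted p = 0.0754), whereas it was called with library size alone (adjusted p = 0.0449), with upper-quartile factors (0.0355) and without central replicate 1 (0.00548, log2 fold change -0.253). Without central replicate 2 its log2 fold change was -0.12 (adjusted p = 0.182). Igf2bp3 shares 1529 exonic bases with Malsu1 on the opposite strand, and whether the counting used strand is not given in the sources used here, so its level is uncertain. Per kilobase of exon the 3 genes summed to 154.5 and 152.3 CPM in anterior libraries and to 137.5 and 153.9 CPM in central ones, ranges that overlap. Igf2bp1 took 43.9% of that sum in both anterior libraries and 37.4% and 39.0% in central ones.

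Ranked by length-scaled mean over the 4 libraries, Hmga2 came first, followed by Igf2bp1, Igf2bp2, Mycn, Igf2bp3, Mycl, Lin28b, Myc, Trim71 and Lin28a. In anterior cells Igf2bp1 (67.3 ± 0.72 CPM per kilobase), Mycn (60.3 ± 0.95) and Igf2bp2 (54.4 ± 1.4) followed Hmga2 with ranges that did not overlap (SD, n = 2). In central cells Igf2bp1 (55.7 ± 6.2) and Igf2bp2 (53.8 ± 3.1) overlapped, and Mycn came after Igf2bp3 (27.1 ± 0.32 against 36.2 ± 2.4). The low end also changed order. In anterior cells Trim71 (8.05 ± 1.2), Lin28a (5.99 ± 1.4) and Myc (3.06 ± 0.68) stood in that order, and in central cells Myc (10.9 ± 0.01) stood above Trim71 (4.76 ± 1.4) and Lin28a (3.29 ± 1.0). In central cells the ranges of Myc and Lin28b (11.1 ± 1.0) overlapped, as did those of Trim71 and Lin28a.

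The MAX network holds the partner of the MYC proteins and the repressors that compete for it. The list used here also holds Mlx, Mlxip and Mlxipl, which are neither, and these were not called. Of its 10 genes, 1 was called higher in anterior cells and 2 lower, against 10.7% and 12.3% of tested genes. The gene called higher was Mxd3, a MAX-binding repressor found in cycling cells, at 20.4 and 18.7 CPM against 12.5 and 10.5 (log2 fold change 0.76 ± 0.15 SE, edgeR adjusted p = 0.00645). Mxd4 and Mxd1, repressors that rise as cells leave the cycle, were lower in anterior cells. Mxd4 measured 23.0 and 21.4 CPM against 37.2 and 36.6 (log2 fold change -0.73, adjusted p = 0.00109), and Mxd1 had a log2 fold change of -0.48 (edgeR adjusted p = 0.0136), which without anterior replicate 2 was no longer called (adjusted p = 0.0983). Max itself, the shared partner, was not called (52.3 and 58.4 against 46.2 and 45.9 CPM, edgeR adjusted p = 0.0616), although it was when all genes with at least 1 count were kept (adjusted p = 0.0469). The MAX-binding repressors Mnt and Mga were not called (adjusted p-values 0.418 and 0.328), except Mga without central replicate 2 (0.00328).

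The 27 known MYC targets listed were mainly genes of ribosome production, nucleotide and polyamine synthesis and translation, with others such as Cdk4 and Tert. Of the 27, 20 were called higher in anterior cells and 0 lower (74.1% and 0% of the list, against 10.7% and 12.3% of all tested genes). The list was chosen with earlier results of these data known, so this contrast describes the list and tests nothing. The median log2 fold change of the list was 0.37, against -0.01 for all tested genes, so that these differences were small in size. Nucleolin (Ncl), an abundant protein of the nucleolus, measured 1342 and 1306 CPM against 1005 and 1007 (log2 fold change 0.40 ± 0.06 SE, edgeR adjusted p = 0.00205). Spermidine synthase (Srm) measured 127 and 127 CPM against 88.5 and 89.6 (log2 fold change 0.51 ± 0.07 SE, edgeR adjusted p = 0.000832), and Rrp9, a part of the U3 particle that processes ribosomal RNA, had a log2 fold change of 0.51 (adjusted p = 0.0045). Odc1, the first enzyme of polyamine synthesis and a classical MYC target, measured 327 and 326 CPM against 282 and 306 and was not called (adjusted p = 0.127), nor was the nucleolar chaperone gene Npm1 (adjusted p = 0.159). Odc1 was called without central replicate 2 (adjusted p = 0.0152) and Npm1 without central replicate 1 (0.0241). Without anterior replicate 2 the count called higher in the list was 12. Of the 12 cofactors and turnover factors of MYC proteins, 3 were called higher and 0 lower (against 10.7% and 12.3% of all tested genes), among them the kinase genes Pim1 (log2 fold change 0.46, adjusted p = 0.00858, or 0.0532 without anterior replicate 2) and Aurka (0.42, adjusted p = 0.00568). The third was Ruvbl2, a subunit of chromatin remodelling complexes, with a log2 fold change of 0.25, named after its values were seen. Fbxw7, whose product marks MYC proteins for destruction, measured 30.1 and 30.4 CPM against 31.6 and 30.2 (edgeR adjusted p = 0.852).

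**Figure D4:**
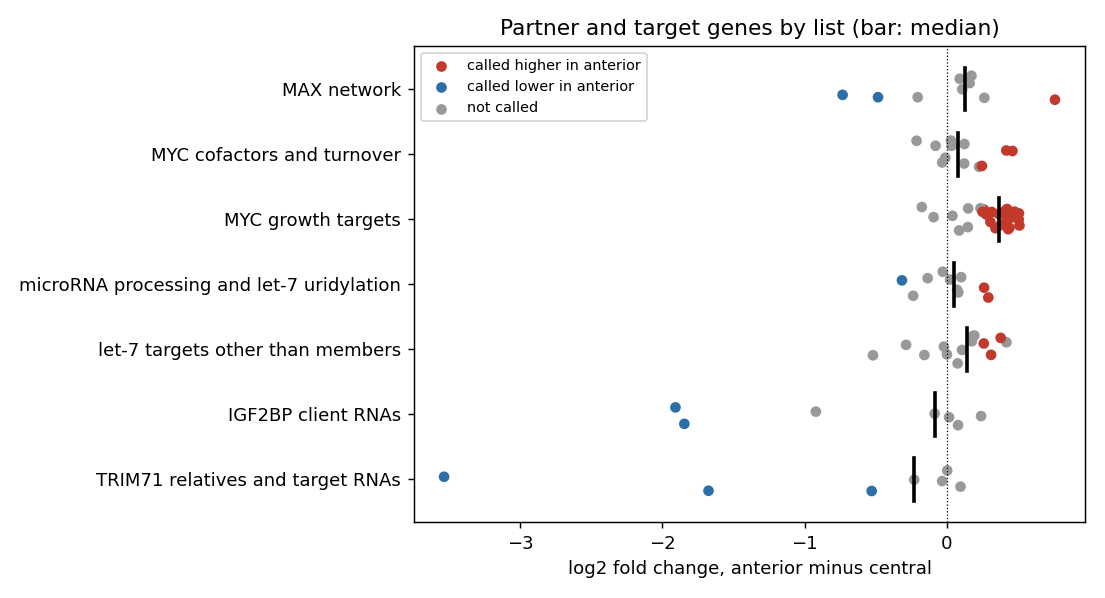
Log2 fold change, anterior minus central (horizontal axis), of each tested gene in lists of partners and targets (rows), coloured by call, with a vertical bar at the median of each list. The MYC growth targets gather to the right of 0 around a median of 0.37, and the points far to the left are Cdkn1a, Egr1, Igf2 and H19.

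Of 10 genes of the machinery that makes and removes let-7, 2 were called higher and 1 lower, against 10.7% and 12.3% of all tested genes, and the median log2 fold change was 0.05. Those called higher were the nuclear microRNA processing enzyme Drosha (log2 fold change 0.29, edgeR adjusted p = 0.0192) and the exporter Xpo5 (0.26, adjusted p = 0.0208). Tut4, the enzyme that adds uridines to the let-7 precursor held by LIN28A, measured 317 and 314 CPM against 367 and 417 and was called lower (log2 fold change -0.31 ± 0.07 SE, edgeR adjusted p = 0.0157). Each of these 3 calls was lost without anterior replicate 1 (adjusted p-values 0.0941, 0.0911 and 0.0722) and without anterior replicate 2 (0.0889, 0.155 and 0.103). Dicer1, which cuts the precursor, was not called (log2 fold change -0.24, adjusted p = 0.0847), although it was with upper-quartile factors (0.0475), without a filter (0.0356), with the replicate block (0.0445) and without central replicate 1 (0.000313). Without central replicate 2 its log2 fold change was -0.0972 (adjusted p = 0.285). The exonuclease gene Dis3l2, which degrades the uridylated precursor, was not called either (adjusted p = 0.54). The 12 rows for let-7 family hairpins had at most 16 counts in any library, and 6 of them were at 0 in every library. Such rows do not measure the mature microRNAs, whose levels are not analysed here.

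Of 14 other known let-7 targets, 3 were called higher and 0 lower, against 10.7% and 12.3% of all tested genes, and their median log2 fold change was 0.14. Among those called were E2f5 (log2 fold change 0.38, edgeR adjusted p = 0.0188, or 0.163 without anterior replicate 2) and Nras (0.31, adjusted p = 0.0117, or 0.093 without anterior replicate 1). The third was Plagl2, at 0.26, named after its values were seen. Beyond the 10 genes, 1436 tested genes held at least 1 CTACCTC match in the 3′ UTR, and 10.4% of them were called higher and 13.6% lower. Among all 13520 tested genes with a 3′ UTR, the shares were 11.3% and 12.6%. The median log2 fold changes were -0.0151 and -0.00746. Genes with a match thus stood near the background in both directions.

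The mRNAs known to be bound by IGF2BP proteins included the largest differences in CPM among the genes and the partner and target lists described here. Igf2, a fetal growth factor gene, measured 1470 and 1469 CPM in anterior libraries and 5100 and 5465 CPM in central ones. It was 3.60-fold lower in anterior cells (log2 fold change -1.85 ± 0.06 SE, edgeR adjusted p = 9.84e-07). H19, the imprinted non-coding RNA next to Igf2 and host of a microRNA, measured 1204 and 1319 CPM against 4794 and 4677, or 3.75-fold lower (log2 fold change -1.91 ± 0.07 SE, edgeR adjusted p = 1.03e-06). Igf2os, transcribed antisense to Igf2, is a row of its own in the table, so without known strandedness the split of reads between them is uncertain. Of the 7 genes of this list, Igf2 and H19 made up the 2 called lower, and 0 were called higher, against 12.3% and 10.7% of all tested genes. The other 5 genes were not called, and the list's median log2 fold change was -0.08.

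Among relatives and repressed targets of TRIM71, 3 of 7 were called lower and 0 higher, against 12.3% and 10.7% of all tested genes. The list pools the relatives Trim2, Trim3 and Trim32 with the targets Cdkn1a, Egr1, Rbl1 and Rbl2. The targets Rbl1 and Rbl2 were not called (log2 fold changes -0.03 and -0.23), nor were Trim3 and Trim32. Cdkn1a, which encodes the cell cycle inhibitor p21 and is repressed by MYC proteins as well as by TRIM71, measured 1.86 and 1.36 CPM in anterior libraries and 15.4 and 22.3 CPM in central ones. It was 11.6-fold lower in anterior cells (log2 fold change -3.54 ± 0.26 SE, edgeR adjusted p = 3.39e-05). Egr1, an immediate early gene that also responds to tissue handling, measured 39.4 and 28.9 CPM against 147 and 71.7 (log2 fold change -1.68 ± 0.29 SE, edgeR adjusted p = 0.00399). The third was the TRIM-NHL relative Trim2 (log2 fold change -0.53), named here after its values were seen. Central replicates were far apart for Egr1, and without central replicate 1 its log2 fold change was -1.06 and without central replicate 2 it was -2.1.

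The genes with the pattern most like that of a family's most abundant member, by distance between centred log2 CPM values over the 4 libraries among 13798 genes, were listed for 3 families. For Mycn they included Fgd5 (distance 0.0648) and Itga8 (0.074). Itga8, an integrin gene, measured 58.9 and 55.5 CPM in anterior libraries and 24.9 and 24.4 in central ones. For Lin28b they were Spred2 (0.0519), Fgd6 (0.0557) and Pim1 (0.0648), and for Igf2bp1 they were Strn (0.0182), Bbs10 (0.0191) and Dlat (0.0281). With 4 libraries in 2 groups, such likeness largely reflects the size of the difference between populations.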

How the data were processed

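RNA was sequenced from 4 libraries, 2 of anterior mCherry-positive and 2 of central mCherry-negative hindlimb cells. The authors deposited whole-number read counts per gene symbol, not normalized. STAR 2.7.9a, HTSeq and DESeq2 are named with mm10 in the submitters' processing notes. Annotation and strandedness are not given in the sources used here. Even numbers made up 72.8% to 75.6% of counts from 1 to 10, a pattern seen when both mates of a pair are counted, so depth in counts may overstate fragments. Columns were matched to titles by domain and number, and 0 columns were left unmatched.

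The test was that of edgeR 4.0.16, run in R 4.3.3 (filterByExpr, TMM, quasi-likelihood F test without a block, Benjamini-Hochberg over 14610 genes, threshold 0.05, 2 residual degrees of freedom). SE is the absolute log2 fold change divided by the square root of F. This test moderates the dispersion of each gene with that of other genes, so p-values and intervals do not rest on its own 2 residual degrees of freedom alone. Exon lengths, gene coordinates and 3′ UTRs came from GENCODE M21 (GRCm38, the assembly named mm10), with a length for 14300 tested genes. The pipeline was run on counts simulated from the means and dispersions of these data. Such a run checks the code, and it does not test the replication or the mixture of cells in the real libraries. The replicates of a population differed beyond sampling noise (chi-square per degree of freedom 15.1 and 8.46 on halved counts). Each library was counted as a sample. That spread may be technical and does not show that the libraries came from separate embryos.

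The genes and lists were chosen with earlier results of these data known. Named genes were all 10 genes, 12 fixed genes, and in each list up to 2 called genes with the largest rise and 2 with the largest fall at a mean of at least 5 CPM, with the 3 genes most alike in pattern for 3 members. A gene that met this rule is not reported here. Alternatives were within edgeR, upper-quartile factors, library size alone or the size factors of DESeq2 1.42.0; limma-voom (limma 3.58.1) and the Wald test of DESeq2; keeping all genes with at least 1 count or those with a mean count of 50 or more; the replicate block, halved counts, removal of erythroid markers, a threshold of 0.01 and leaving out each library. Removal of Rn45s, and all settings for the count of MYC growth targets, were added after seeing the data.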

Additional observations from a re-analysis of the deposited data

How the results depend on the processing

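With 2 libraries per group, calls near the threshold are uncertain. Myc, Mycn and Hmga2 kept their direction and their call under every scaling, test, filter, block, gene removal and halving that was run. They kept their direction with each library left out. Removing the rows of erythroid markers or Rn45s leaves the counts of these genes unchanged, so it does not test the part of admixed cells. At a threshold of 0.01, 1690 genes were called (721 higher, 969 lower), 1 of the 10 genes was called higher and 2 lower, and 13 MYC growth targets were called higher, since the criterion is stricter. Fits without 1 library assume that the lone library of a group varies like the other group. Across them the count of called genes ranged from 2009 (without anterior replicate 2) to 3697, with 809 to 1884 higher and 1200 to 1813 lower. Of the 10 genes, 2 to 5 were called higher and 2 to 4 lower, and of the MYC growth targets 12 to 22 were called higher. The lowest values came without anterior replicate 2, and the cause was not tested.

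Sign changes were in genes near 0. Igf2bp2 became -0.0156 with library size alone and -0.0223 with upper-quartile factors. Across the fits without 1 library, log2 fold changes ranged from -0.04 to 0.0761 for Igf2bp2, from -0.0614 to 0.00473 for Fbxw7, from -0.0147 to 0.236 for Dis3l2 and from -0.19 to 0.164 for Hmga1. Library size alone and upper-quartile factors shifted the median by -0.0308 and -0.0374 on the log2 scale.

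The fit with the replicate block called 3586 genes (3264 of them also without it), against 3351 without, and 5 of the 10 genes were called higher and 3 lower in both fits. Of the named genes, Dicer1 alone changed its call (adjusted p-value 0.0445). Over genes, which are not independent, the differences between replicates in anterior and in central cells correlated at 0.04 (Pearson) and 0.0311 (Spearman). The samples share only a number.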

Other observations

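The E-box CACGTG, the motif bound by MYC and MAX, was searched in RefSeq promoters (GRCm38.p6, 250 bases before to 50 after a gene's start; the motif reads the same on both strands). Of 11438 tested genes with such a promoter, 11.4% held it. Among the MYC growth targets 7 of 22 with a promoter held it (31.8%), namely Cdk4, Eif4a1, Eif4e, Hspd1, Impdh2, Mybbp1a and Pes1. Of these 7, 4 were called higher in anterior cells (Eif4a1, Eif4e, Hspd1 and Mybbp1a), as were 13 of the 15 without the motif in that window. The difference between these shares was not tested. Cdk4, with 4 matches, had a log2 fold change of -0.09 and was not called. Of 8 of the 10 genes with such a promoter, Igf2bp3 held 2 matches and Lin28b held 1. The Lin28b promoter (chr10:45470152-45470451, minus strand) lies inside the GENCODE gene span given above, so its RefSeq start is not the GENCODE start. A match describes the letters and not binding.

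Besides Lin28b, Trim71, Hmga2 and Igf2bp1, 7 tested genes held at least 4 let-7 seed matches in the 3′ UTR. Nr6a1, a nuclear receptor gene of early embryos, held 8 and was not called (log2 fold change -0.52, edgeR adjusted p-value 0.202). Mcf2l held 7 and was lower in anterior cells (log2 fold change -1.16, edgeR adjusted p-value 0.00226). Nudt12 (7 matches), Trim6 (6 matches), Hic2 (4 matches) and Zbtb37 (4 matches) were not called. D10Wsu102e (4 matches) was higher (log2 fold change 0.38, edgeR adjusted p-value 0.0119). The annotated 3′ UTRs of D10Wsu102e and Zbtb37 were 122583 and 16999 bases long. Those of the other genes with at least 4 matches were 2220 to 6337 bases long, so match numbers are not comparable by length.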
